A study of Mus musculus with 12 samples.

Results

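The 40 genes described here encode the core machinery of cell division, and their transcripts were followed in sorted thymic epithelial cells (TEC) of the mouse. They were chosen as a fixed list of proliferation gene symbols and comprised 9 G1 cyclins, cyclin-dependent kinases and E2f1, 11 DNA replication genes, 17 genes of G2 and mitosis and 3 inhibitors of cyclin-dependent kinases. All 40 symbols were found among the 34547 quantified genes and in the normalised table of the study, and all 40 had enough counts to be tested in every comparison. RNA was sequenced from 12 libraries, 3 each of cortical TEC (cTEC) and medullary TEC (mTEC) from wild-type (WT) C57/black 6 mice and from Aβ0/0 mice. Aβ0/0 mice lack MHC class II (MHCII) molecules owing to a germ line disruption of H2-Ab1, which encodes the MHCII β chain, and the defect is therefore not limited to TEC. Each library came from a pool of 5 to 10 mice of 4 to 6 weeks of age. After depletion of CD45+ cells, the TEC were stained for CD45, EpCam, MHCII, the lectin Ulex-1 and Ly51 and sorted. No treatment was given. The study asked how TEC differ without MHCII, and the comparisons were WT against Aβ0/0 within each subset, mTEC against cTEC within each genotype, and the difference of the genotype effect between the subsets.

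Cells enter the cycle when D-type cyclins activate Cdk4 and Cdk6 and cyclin E activates Cdk2, which together release E2F transcription factors from the retinoblastoma protein. E2F factors then switch on genes that build the replication machinery, while a later wave of genes for G2 and mitosis is controlled by the DREAM and MuvB complexes, B-Myb and Foxm1 through CCAAT boxes and the cell cycle homology region (CHR). CDK inhibitors such as p21 and p27 hold the kinases in check. In the thymus, mTEC of the Aire-expressing stage turn over quickly and are replaced from cycling precursors, and dividing thymocytes surround the epithelium.

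The promoter sequences of the members were inspected for these elements, since the G2 and mitosis genes are the ones whose levels are followed most closely here. RefSeq windows of 250 bases before to 50 bases after the transcription start (GRCm38.p6) were matched by symbol for 32 of the 40 members, and Ccnd1, Ccnd2, Ccne2, Mcm4, Foxm1, Ccna2, Aurkb and Tpx2 had no entry. On either strand, CCAAT was found in 12 of 13 G2 and mitosis members (92.3%) and in 41.1% of all 27025 genes with a window. The CHR sequence TTTGAA was found in 10 of 13 G2 and mitosis members (76.9%), in 2 of 10 DNA replication members and in 20.2% of all genes. Both motifs stood in the same window in those 10 members, against 7.97% of all genes. The E2F sequence TTGGCGC was found in 5 of 10 DNA replication members (50%), in 3 of 13 G2 and mitosis members and in 2.85% of all genes. The second E2F sequence, TTCCCGC, was found in 4 of 10 DNA replication members (40%), in none of the 13 G2 and mitosis members and in 5.29% of all genes. A CCAAT box read on the other strand (ATTGG) can overlap TTGGCGC, and such bases then count for both motifs. A match is a description of letters and not evidence of binding. The 150 bases before the start are shown for 3 G2 and mitosis members whose levels differed between groups or mark dividing cells, and for 1 DNA replication member. They are written 5′ to 3′ on the strand of the gene, with all matches to the 4 motifs on either strand in capitals.
Ccnb2 (chr9:70421555-70421704, minus strand): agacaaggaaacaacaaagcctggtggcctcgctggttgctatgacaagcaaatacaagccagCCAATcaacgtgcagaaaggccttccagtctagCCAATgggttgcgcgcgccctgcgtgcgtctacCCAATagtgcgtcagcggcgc
Cdk1 (chr10:69352913-69353062, minus strand): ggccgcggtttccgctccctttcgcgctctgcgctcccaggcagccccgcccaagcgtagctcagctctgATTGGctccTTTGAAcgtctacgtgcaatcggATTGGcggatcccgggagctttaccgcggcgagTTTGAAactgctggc
Top2a (chr11:99024190-99024339, minus strand): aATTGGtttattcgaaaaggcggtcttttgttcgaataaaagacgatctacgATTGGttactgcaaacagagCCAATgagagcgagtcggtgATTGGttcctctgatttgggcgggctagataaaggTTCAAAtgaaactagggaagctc
Mcm6 (chr1:128359706-128359855, minus strand): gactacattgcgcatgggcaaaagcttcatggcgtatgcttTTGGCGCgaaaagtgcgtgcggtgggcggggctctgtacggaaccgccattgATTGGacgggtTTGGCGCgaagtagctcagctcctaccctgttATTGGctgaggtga
Counted from the start, with the first base before it as -1, Ccnb2 had CCAAT boxes beginning at -87, -54 and -21, and its 2 TTTGAA sequences began outside the stretch shown, at -167 and 5. Cdk1 had TTTGAA at -71 and -15 next to inverted CCAAT boxes at -80 and -48. Mcm6 had TTGGCGC at -109 and -46 and no TTTGAA.

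The depth of the libraries was between 21.7 and 36.1 (median 29.6), in units of 1e6 estimated counts. H2-Ab1 was measured at between 6603 and 11065 counts-per-million (CPM) in the 6 WT libraries and between 1950 and 3771 CPM in the 6 Aβ0/0 libraries, and the ranges did not overlap. Remaining reads of a disrupted gene can come from parts that the allele keeps, so this level does not measure functional protein. The markers of the sorted subsets followed the labels. All 7 cTEC markers, such as Psmb11 and Prss16, were lower in WT mTEC than in WT cTEC, and 7 of 9 mTEC markers, such as Aire and Fezf2, were higher by the edgeR test used here, which called 26.8% of all genes in this comparison. The 16 thymocyte markers summed to between 350 and 728 transcripts-per-million (TPM) in WT cTEC and between 801 and 1015 TPM in Aβ0/0 cTEC. In mTEC they summed to between 103 and 200 TPM in WT and between 45.6 and 170 TPM in Aβ0/0, and none of the 16 was at or under 3 counts in all libraries of a group. The 6 granulocyte markers summed to between 1300 and 1948 TPM in WT mTEC and between 175 and 365 TPM in Aβ0/0 mTEC, where Elane and Ngp were at or under 3 counts in every library. The 12 dendritic, macrophage and B cell markers summed to between 622 and 681 TPM in WT mTEC and between 115 and 776 TPM in Aβ0/0 mTEC, where Adgre1, Itgax and Cd209a were at or under 3 counts in every library. Among these markers Lyz2 was at 529 to 595 CPM in WT mTEC and at 650, 125 and 110 CPM in Aβ0/0 mTEC. The 6 fibroblast markers summed to between 1595 and 2404 TPM in cTEC and between 111 and 261 TPM in mTEC. Among them Dcn had by far the highest level in WT cTEC, at 2123 to 2622 CPM, against 107 to 182 CPM in WT mTEC. Col1a2 and Lum were also lower in WT mTEC than in WT cTEC without overlap. Col1a1, Pdgfra and Pdgfrb overlapped between these groups, so the sum does not describe all of these markers. In a bulk library, fewer cells of a type and less RNA per cell cannot be told apart.

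Few members passed the test of edgeR (quasi-likelihood, Benjamini-Hochberg adjustment over all tested genes, adjusted p under 0.05). Between genotypes, 0 of 40 members were called in mTEC, where 5.66% of all 18636 tested genes were called, and 0 of 40 in cTEC, where 0.0194% were. At an unadjusted p under 0.05 there were 2 members in mTEC, Ccnb2 and Aurka, against 15.3% of all genes, and 1 in cTEC, Rrm2, against 2.16%. DESeq2 called 1 member in mTEC, Ccnb2, against 9.56% of all genes, and 0 in cTEC, against 0.395%. By limma on the rlog values 0 members were called in both, against 4.21% of all genes in mTEC and 0.0212% in cTEC. Between subsets, 3 of 40 members were called in WT, where 26.8% of all genes were. Cdkn1a and Cdk1 were higher in mTEC (18% of all genes) and Ccnd3 was lower (8.81%). Without MHCII, 1 of 40 members, Ccnb2, was called, lower in mTEC, where 5.6% of all genes were called, 3.45% as higher and 2.15% as lower. The genotype effect differed between the subsets for 0 of 40 members by edgeR, DESeq2 and limma, against 0.0103% of all 19461 genes by edgeR, 1.42% by DESeq2 and 3.44% by limma, and 2 members, Ccnb2 and Aurka, had an unadjusted p under 0.05, against 6.9% of all genes.

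The members spanned a wide range of levels. Per length, over all 12 libraries, the mean was highest for Ccnd2, at 548 TPM, followed by Cdk4 at 378 TPM and Ccnd3 at 130 TPM. Ccnd2 was above Cdk4 in 10 of 12 libraries, and Cdk4 was above Ccnd3 in all 12. Cdkn1a followed at 109 TPM and stood below Ccnd3 in 6 of 12 libraries, so these neighbours changed order between libraries. Pcna, at 87.9 TPM, led the replication genes and did so in all 12 libraries. Cdk1, at 41.9 TPM, had the highest mean of the G2 and mitosis genes through the mTEC libraries, while in cTEC Birc5 was above it, at means of 34.7 and 24.3 TPM in WT and 46.6 and 37.3 TPM in Aβ0/0 mice. The lowest means were those of E2f1, at 2.51 TPM, and of the spindle motor Kif11, at 2.63 TPM. Mki67, which encodes the Ki-67 antigen of cycling cells, had a mean of 4.94 TPM. At or under 3 counts were Ccne1 in 1 WT and 1 Aβ0/0 cTEC library, Bub1 in 2 Aβ0/0 mTEC libraries, and Foxm1 and Bub1b in the third.

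**Figure D1:**
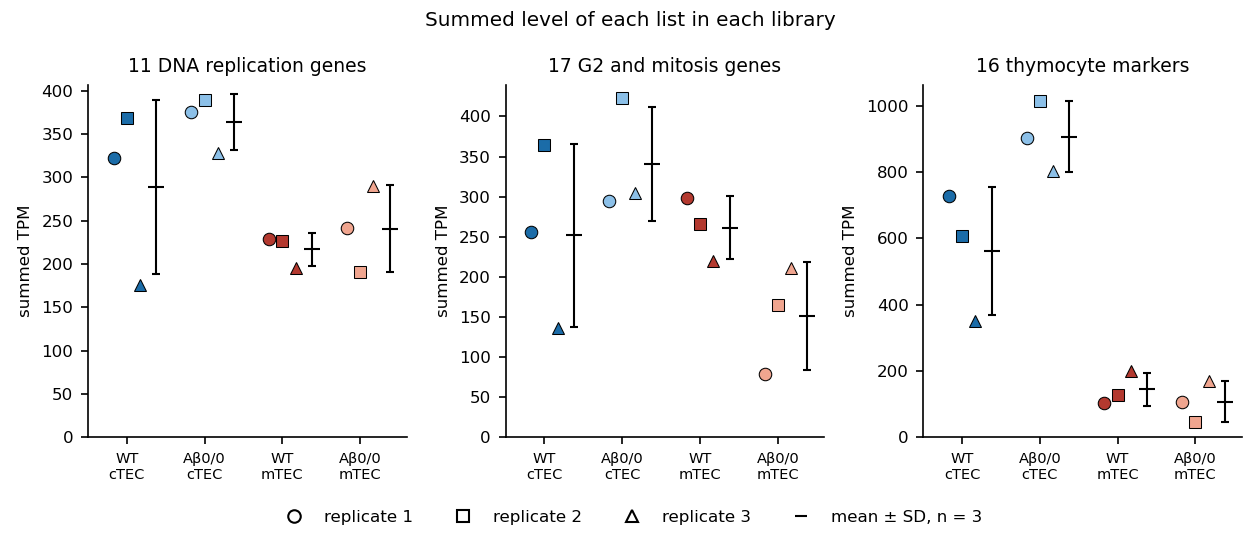
Summed level in TPM of the 11 DNA replication members, the 17 G2 and mitosis members and the 16 thymocyte markers (vertical axes, each from 0) in the 12 libraries, with the mean ± SD of 3 libraries beside the points. The G2 and mitosis sum lay between 220 and 298 TPM in WT mTEC and between 78.3 and 211 TPM in Aβ0/0 mTEC, and the thymocyte sum was higher in each cTEC library than in any mTEC library.

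Among the genes of G1 entry, Ccnd3 was lower in mTEC than in cTEC of WT mice, and no gene passed the threshold between genotypes. Ccnd3 encodes a D-type cyclin whose role in lymphoid cells is well known. The group means of its kinase partner Cdk4 lay between 279 and 359 CPM. Ccnd3 (chr17:47505051-47599691, plus strand, GRCm38) was at 212, 237 and 173 CPM in WT cTEC replicates 1, 2 and 3 and at 93.9, 106 and 126 CPM in WT mTEC. Every WT mTEC library was below every WT cTEC library. The log2 fold change of mTEC over cTEC was -0.91 ± 0.21 (SE, n = 3 against 3, adjusted p = 0.016 by edgeR), a level 1.87-fold lower. The adjusted p was 0.072 without WT mTEC replicate 1 and 0.078 without replicate 2. The Aβ0/0 libraries had Ccnd3 at 258, 296 and 227 CPM in cTEC and at 114, 70.5 and 141 CPM in mTEC, again without overlap, with a log2 fold change of -1.26 ± 0.30 and an adjusted p of 0.054, against 0.0018 by DESeq2, 0.0095 in the fit on all 12 libraries and 0.049 without a filter on low counts. Between genotypes its log2 fold changes were 0.01 in mTEC and -0.30 in cTEC. The thymocyte marker sums were also lower in mTEC than in cTEC. They were 103 to 200 against 350 to 728 TPM in WT and 45.6 to 170 against 801 to 1015 TPM in Aβ0/0 mice. The part of thymocytes in the Ccnd3 values was not tested.

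Ccnd1, the D-type cyclin most often linked to growth factor signals, had the opposite order. It was at 16.7, 13.5 and 28.3 CPM in WT cTEC, at 13.2, 23.7 and 17.2 CPM in Aβ0/0 cTEC, at 25.9, 42.6 and 45.3 CPM in WT mTEC and at 30.8, 116 and 63.0 CPM in Aβ0/0 mTEC. The mTEC libraries were above the cTEC libraries without overlap in Aβ0/0 mice, and overlapped them in WT mice through WT cTEC replicate 3. The log2 fold change of mTEC over cTEC was 0.97 ± 0.38 in WT (adjusted p = 0.1 by edgeR) and 1.96 ± 0.54 in Aβ0/0 (adjusted p = 0.084), and neither passed the threshold. Without WT cTEC replicate 3 it was 1.37 in WT, with an adjusted p of 0.011. DESeq2 called Ccnd1 in both genotypes, with adjusted p values of 0.048 and 0.0049. Reads at the end of Ccnd1 overlap the gene LTO1 on the other strand over 818 bases, and those of Ccnd3 overlap Bysl over 361 bases, and a library kit without strand cannot separate them. The other 7 genes of this group, Ccnd2, Cdk4, Cdk6, Ccne1, Ccne2, Cdk2 and E2f1, passed the threshold of edgeR in no comparison with all libraries. Cdk6 had a log2 fold change of -0.76 in WT mTEC over cTEC with an adjusted p of 0.1, and its WT libraries did not overlap. It was called by limma on the rlog values, with scaled TPM and without WT cTEC replicate 1, with adjusted p values of 0.018, 0.018 and 0.035. Ccne1 was higher in every mTEC than in every cTEC library of the same genotype, but rested on means of 2.56 to 9.40 CPM.

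The DNA replication genes encode origin licensing factors (Cdc6, Cdt1), subunits of the replicative helicase (Mcm2 to Mcm7) and its activator Cdc45, the sliding clamp Pcna and the ribonucleotide reductase subunit Rrm2. None of the 11 passed the threshold of edgeR in any comparison with all libraries. In cTEC 10 of the 11 had a lower fitted level in WT than in Aβ0/0 mice, with a median log2 fold change of -0.52 against 0.06 over all genes tested. Mcm2 was at 29.8, 40.1 and 23.7 CPM in WT cTEC and at 51.5, 44.9 and 46.4 CPM in Aβ0/0 cTEC, and Mcm6 at 80.8, 81.0 and 41.8 CPM and at 88.1, 102 and 82.7 CPM. These 2 members, named for their ranges after their values were seen, were below without overlap, as were 3.61% of all genes. None lay above, where 4.07% of all genes did. Rrm2 had the lowest unadjusted p of the members in this comparison, 0.027, with an adjusted p of 1 and a log2 fold change of -0.85. WT cTEC replicate 3 was the lowest of its group in 9 of the 11 genes, and it also had the lowest thymocyte sum, 350 TPM, of the cTEC libraries. The median was -0.28 without that library, -0.30 without Aβ0/0 cTEC replicate 2 and -0.80 without WT cTEC replicate 2. The thymocyte markers moved the same way, with a median log2 fold change of -0.59 and 14 of 16 lower in WT cTEC, and their part in the result was not tested.

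In mTEC the replication genes differed little between genotypes. The median log2 fold change of WT over Aβ0/0 was -0.17 over the 11 genes and 0.003 over all genes. Leaving out 1 library gave between -0.29 and -0.08, and the rlog values and the fit with the replicate number as a block gave 0.06 and 0.01, so that this median had no settled sign. Mcm2 alone was below without overlap, at 29.8, 26.2 and 20.003 CPM in WT and 31.8, 31.8 and 35.6 CPM in Aβ0/0 mTEC, where 8.53% of all genes lay below. Between subsets, the medians were -0.27 in WT, which was -0.42 without WT cTEC replicate 3, and -0.51 in Aβ0/0 mice, against 0.06 and 0.03 over all genes. The thymocyte markers had medians of -1.72 and -2.96 in the same comparisons, with 11 and 4 of 16 called, and their part in these values was not tested. In WT, Cdc6 was lower in mTEC without overlap, at 6.6, 11.01 and 6.0 CPM in cTEC and 3.6, 3.3 and 2.7 CPM in mTEC, with a log2 fold change of -1.27 ± 0.53 and an adjusted p of 0.12 by edgeR. Cdc6 was called by DESeq2 (adjusted p = 0.026), by limma on the rlog values (0.048) and without WT cTEC replicate 3 (0.048), and the helicase gene Mcm4 was called without that library, with a log2 fold change of -0.99. Among 40 other S phase genes, such as polymerase and GINS subunits, 0 were called in each of the 5 comparisons, against 5.66% and 0.0194% of all genes between genotypes in mTEC and cTEC, 26.8% and 5.6% between subsets in WT and Aβ0/0 mice and 0.0103% for the difference of genotype effects. Their median log2 fold changes were 0.23 and -0.23 between genotypes in mTEC and cTEC, and -0.04 and -0.62 between subsets in WT and Aβ0/0 mice.

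The 17 genes of G2 and mitosis had the lowest mean summed level in Aβ0/0 mTEC. Their sum was 298, 266 and 220 TPM in WT mTEC and 78.3, 165 and 211 TPM in Aβ0/0 mTEC, so that each WT library was above each Aβ0/0 library, the closest pair being 220 and 211 TPM. In cTEC the sum was 255, 364 and 136 TPM in WT and 295, 423 and 304 TPM in Aβ0/0 mice, and the genotypes overlapped. Relative to the replication sum of the same library, the G2 and mitosis sum was 1.20 ± 0.09 in WT mTEC and 0.64 ± 0.28 in Aβ0/0 mTEC (SD, n = 3), while it was 0.85 ± 0.12 and 0.93 ± 0.15 in WT and Aβ0/0 cTEC. The ratio lay between 1.13 and 1.30 in WT mTEC and between 0.32 and 0.86 in Aβ0/0 mTEC. The replication sums of mTEC overlapped between genotypes, at 228, 227 and 195 TPM in WT and 241, 191 and 290 TPM in Aβ0/0.

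Between genotypes in mTEC, 16 of the 17 genes had a higher fitted level in WT, and none passed the threshold. The median log2 fold change was 0.74, against 0.003 over all genes. It was 0.31 without Aβ0/0 mTEC replicate 1, which was the lowest of its group for 11 of the 17 genes, and 1.25 without replicate 3. With the replicate number as a block it was 1.14, and 17 of 17 were higher. The tally was 13 of 17 without Aβ0/0 mTEC replicate 1 and 15 of 17 without WT mTEC replicate 2. Foxm1, Ccnb2, Aurka and Birc5 were higher in WT without overlap, where 18.1% of all genes were. Ccnb2, a cyclin that activates Cdk1 at mitosis, was at 22.5, 26.1 and 14.9 CPM in WT mTEC and at 6.2, 7.1 and 8.7 CPM in Aβ0/0 mTEC. Its log2 fold change was 1.53 ± 0.42, with an unadjusted p of 0.0079 and an adjusted p of 0.1 by edgeR. DESeq2 gave 1.55 with an adjusted p of 0.0024. The mitotic kinase Aurka was at 14.9, 20.96 and 16.7 CPM in WT libraries, against 3.9, 10.9 and 4.0 CPM in Aβ0/0 mTEC, with a log2 fold change of 1.49 ± 0.57 and an adjusted p of 0.27. The chromosomal passenger protein Birc5 was at 17.8, 22.3 and 19.8 CPM and at 5.2, 10.9 and 12.99 CPM, with 1.05 ± 0.46 and an adjusted p of 0.34. The transcription factor Foxm1 had the largest fitted difference, 2.01 ± 1.25, but at 10.6, 5.2 and 7.9 CPM in WT and 1.0, 4.7 and 0.1 CPM in Aβ0/0 mTEC.

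The markers most often used for cycling cells overlapped between genotypes. Mki67 was at 36.7, 32.7 and 28.8 CPM in WT mTEC and at 14.9, 65.4 and 22.8 CPM in Aβ0/0 mTEC, with a log2 fold change of -0.06 ± 0.54. Replicate 2 stood above all WT libraries and the other two below them, and without replicate 2 the log2 fold change was 0.81, with an adjusted p of 0.20. Top2a, the topoisomerase that untangles sister chromatids, was at 40.4, 40.3 and 35.2 CPM in WT mTEC and at 12.4, 8.9 and 63.3 CPM in Aβ0/0 mTEC, so that here replicate 3 was the high one. Its log2 fold change was 0.46 ± 0.72, and 1.86 without replicate 3, with an adjusted p of 0.076. The Aβ0/0 mTEC libraries thus differed among themselves in which mitotic gene was high. Between genotypes in mTEC, where 5.66% of all genes were called, 2 of 5 tested granulocyte markers and 3 of 12 dendritic, macrophage and B cell markers were called as higher in WT. With the replicate number as a block, or without any 1 of the WT mTEC libraries, 0 genes were called, so none of these marker calls was kept. The granulocyte sums did not overlap, while the dendritic, macrophage and B cell sums did, since Aβ0/0 mTEC replicate 1 lay above every WT library at 776 TPM. In that library Lyz2 was at 650 CPM, while Adgre1, Itgax and Cd209a were at 0 CPM. The thymocyte sums overlapped, with 0 of 16 markers called. Of the epithelial markers, 1 of 9 mTEC markers, Aire, and 1 of 7 cTEC markers, Ccl25, were called as higher in WT, with log2 fold changes of 2.17 and 1.35 and an adjusted p of 0.035 each by edgeR. Neither of these calls was kept with the block or without any 1 of the WT mTEC libraries. The cTEC marker sum was between 632 and 793 TPM in WT and between 318 and 550 TPM in Aβ0/0 mTEC, and the mTEC marker sum between 18871 and 23864 TPM in WT and between 24834 and 34358 TPM in Aβ0/0 mTEC, both without overlap. The single mTEC markers did not move together. Aire was at 439 to 982 CPM in WT and 118 to 185 CPM in Aβ0/0 mTEC. Fezf2 was at 370 to 430 and 221 to 341 CPM. Krt14 went the other way, at 1050 to 1481 and 1517 to 1788 CPM. Ccl21a was at 7573 to 12100 and 11272 to 23166 CPM, and it and the other mTEC markers overlapped. The part of these cells and markers in the values of the mitotic genes was not tested.

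**Figure D2:**
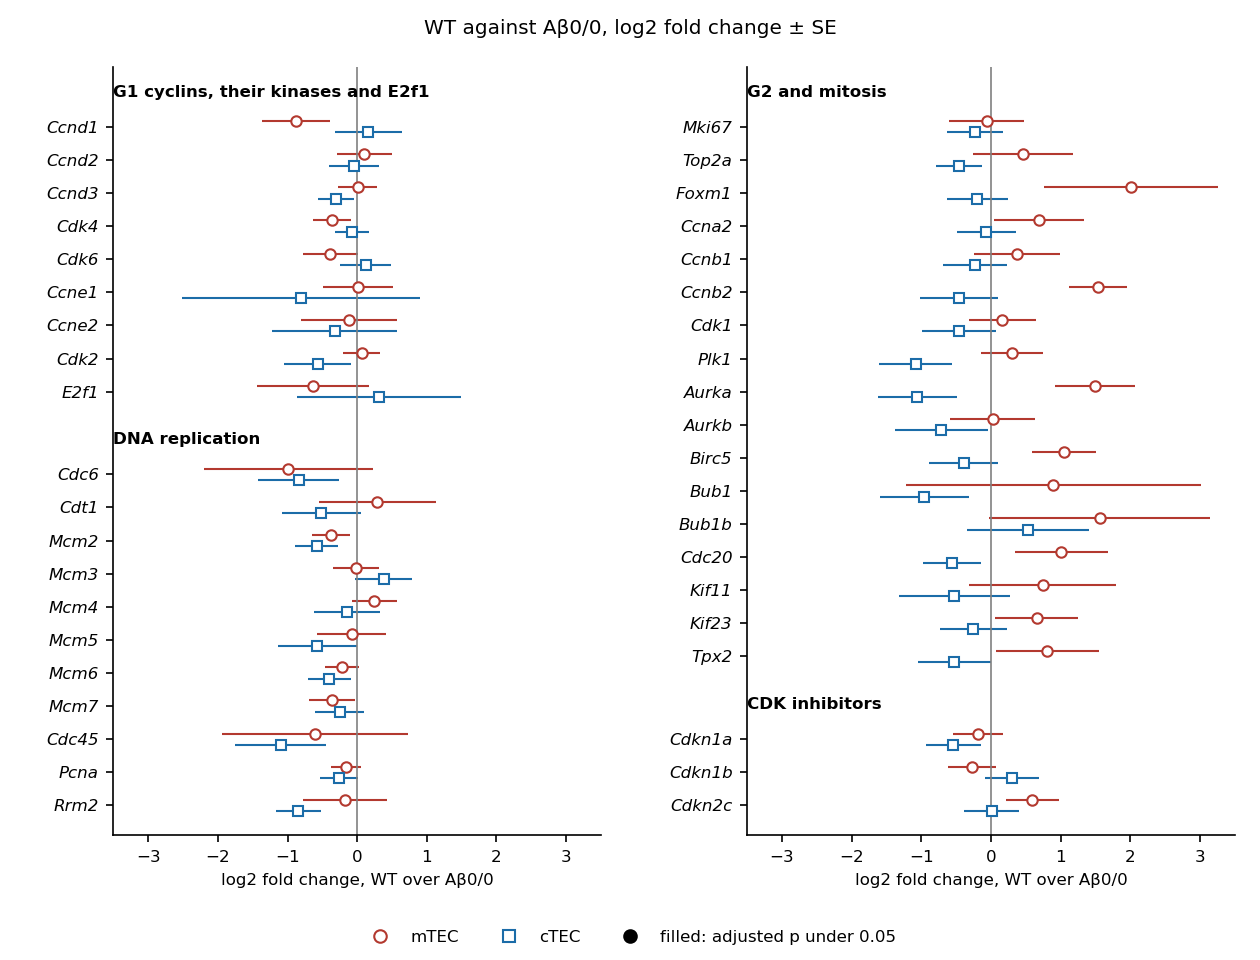
Log2 fold change of WT over Aβ0/0 (horizontal axis) ± SE from edgeR for each of the 40 members in mTEC (red circles) and cTEC (blue squares), with 3 against 3 libraries each. No symbol is filled, since no member passed the adjusted threshold, and 16 of 17 G2 and mitosis genes lie above 0 in mTEC and 16 of 17 below 0 in cTEC.

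In cTEC the same genes leaned the other way. Of the 17, 16 had a lower fitted level in WT, all but the checkpoint gene Bub1b, with a median log2 fold change of -0.46 against 0.06 over all genes, and none was called. The median was -0.17 without WT cTEC replicate 3, -0.08 without Aβ0/0 cTEC replicate 2 and -0.75 without WT cTEC replicate 2. WT cTEC replicate 3 was the lowest of its group for 13 of the 17 genes. No G2 and mitosis member separated the genotypes in cTEC without overlap. The thymocyte marker sums were also lower in WT cTEC, at 350 to 728 TPM against 801 to 1015 TPM in Aβ0/0 cTEC. Their part in the values of these genes was not tested. Mki67 was at 43.4, 43.1 and 32.8 CPM in WT and 62.6, 55.9 and 23.6 CPM in Aβ0/0 cTEC, and Top2a at 48.1, 52.7 and 52.3 CPM and 76.8, 93.4 and 44.8 CPM. The test of the difference between the genotype effects gave a positive value, WT over Aβ0/0 being larger in mTEC than in cTEC, for all 17 genes with all 12 libraries in the fit. The median was 1.30 on the log2 scale against -0.04 over all genes, and between 0.91 and 1.66 when 1 library was left out. The largest values were those of Aurka, 2.58 ± 0.86, Foxm1, 2.22 ± 1.29, and Ccnb2, 2.03 ± 0.75, with adjusted p values of 0.50, 0.83 and 0.58. The 17 values share the same 12 libraries and are not independent of each other. The thymocyte markers gave a median of 1.22 in the same test, with 14 of 16 above 0 and 0 called. Among 45 other G2 and mitosis genes, 39 were above 0, with a median of 0.96 and 0 called, against 0.0103% of all genes.

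Between subsets the G2 and mitosis genes were about level in WT mice, and in Aβ0/0 mice most had a lower fitted level in mTEC. In WT, 9 of 17 were higher in mTEC and 8 lower, with a median log2 fold change of 0.02, which lay between -0.16 and 0.42 when 1 library was left out. Among Aβ0/0 libraries 16 of 17 were lower, with a median of -1.35 and a range of -1.70 to -0.99 when 1 library was left out. The Aβ0/0 mTEC libraries enter this comparison and the genotype comparison in mTEC, so the values are not independent. The thymocyte markers were also lower in mTEC, with medians of -1.72 in WT and -2.96 in Aβ0/0 mice and 11 and 4 of 16 called, against 26.8% and 5.6% of all genes, and their part in the result was not tested. Cdk1 (chr10:69335146-69352938, minus strand) was the 1 gene with a higher fitted level in mTEC of Aβ0/0 mice and the 1 gene of the 17 called in WT. This kinase, which drives entry into mitosis, was at 18.2, 14.7 and 20.004 CPM in WT cTEC and at 42.2, 50.2 and 37.5 CPM in WT mTEC, without overlap. The log2 fold change was 1.31 ± 0.26, a 2.48-fold higher level with an adjusted p of 0.0078 by edgeR. With the spread estimated from all 12 libraries the adjusted p was 0.14. The Aβ0/0 libraries had Cdk1 at 16.8, 43.9 and 13.6 CPM in cTEC and at 15.1, 63.0 and 38.3 CPM in mTEC, and the groups overlapped. The most abundant Cdk1 transcript held on average 70.6%, 57.99%, 63.5% and 73.4% of the gene's TPM in WT cTEC, Aβ0/0 cTEC, WT mTEC and Aβ0/0 mTEC.

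Ccnb2 (chr9:70407692-70421547, minus strand) was the member called in Aβ0/0 mice. It was at 25.7, 58.3 and 35.2 CPM in Aβ0/0 cTEC and at 6.2, 7.1 and 8.7 CPM in Aβ0/0 mTEC, without overlap, and the log2 fold change of -2.44 ± 0.51 (adjusted p = 0.036 by edgeR) amounted to a 5.42-fold lower level. The call was not kept with the pool of mice as a block, where the log2 fold change was -2.36 and the adjusted p 0.072, nor when any 1 of the 6 libraries was left out, where they were between -2.71 and -2.04 and between 0.059 and 0.18. With limma on the rlog values the adjusted p was 0.053. In WT mice Ccnb2 was at 25.0, 51.4 and 9.9 CPM in cTEC and 22.5, 26.1 and 14.9 CPM in mTEC, and the groups overlapped. In Aβ0/0 mice 11 members were lower in mTEC without overlap, where 13% of all genes were, and 3 were higher, where 15% were. The 11 were Ccnd3, Mcm2, Mcm4, Mcm6, Foxm1, Ccnb2, Aurka, Birc5, Kif11, Kif23 and Cdkn1b, and the 3 were Ccnd1, Ccne1 and Cdkn1a. In WT mice 6 were lower, against 17.4% of all genes, namely Ccnd3, Cdk6, Cdc6, Top2a, Foxm1 and Cdkn1b. Another 3 were higher, against 29.6%, namely Ccne1, Cdk1 and Cdkn1a. Among the 45 other G2 and mitosis genes, 2 were called in WT, against 26.8% of all genes, where the phosphatase Cdc25c and the kinase Melk were higher in WT mTEC than in WT cTEC, with log2 fold changes of 2.35 and 3.70 and adjusted p values of 0.012 and 0.04999. The centromere histone Cenpa was lower in Aβ0/0 mTEC than in Aβ0/0 cTEC, with -2.52 and an adjusted p of 0.034, and was the 1 of the 45 called there, against 5.6% of all genes. It was at 24.4, 43.0 and 51.8 CPM in Aβ0/0 cTEC and at 8.3, 4.6 and 7.7 CPM in Aβ0/0 mTEC.

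**Figure D3:**
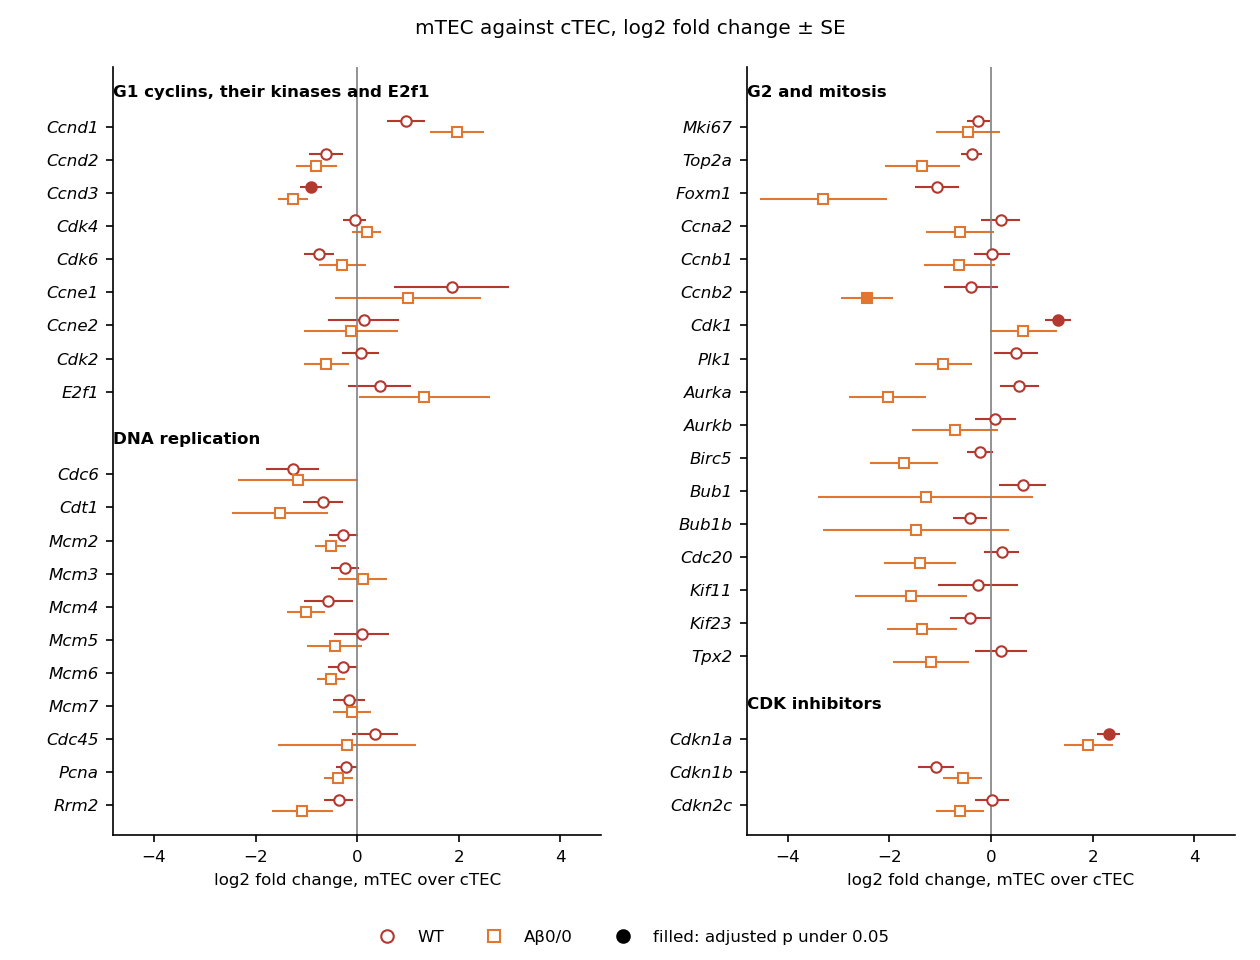
Log2 fold change of mTEC over cTEC (horizontal axis) ± SE from edgeR for each of the 40 members in WT (red circles) and Aβ0/0 mice (orange squares), with 3 against 3 libraries each, filled where the adjusted p was under 0.05. Cdkn1a, Cdk1 and Ccnd3 are filled in WT and Ccnb2 in Aβ0/0 mice, and 16 of 17 G2 and mitosis genes lie below 0 in Aβ0/0 mice.

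Among the CDK inhibitors was the member with the lowest adjusted p of the whole list. Cdkn1a (chr17:29090976-29100727, plus strand) encodes p21, which blocks CDK2 and CDK1 complexes and is a target of p53. It was at 27.5, 39.9 and 24.9 CPM in WT cTEC and at 151, 150 and 150 CPM in WT mTEC. The log2 fold change was 2.32 ± 0.23, a 4.98-fold higher level in mTEC with an adjusted p of 0.00065 by edgeR, and it was called under all 14 alternatives. In Aβ0/0 mice it was at 31.0, 35.0 and 71.6 CPM in cTEC and at 246, 182 and 85.9 CPM in mTEC, again without overlap. The log2 fold change there was 1.92 ± 0.48 with an adjusted p of 0.06 by edgeR, against 0.0013 by DESeq2, 0.044 with scaled TPM and 0.011 in the fit on all 12 libraries. Between genotypes Cdkn1a overlapped in both subsets, with log2 fold changes of -0.18 ± 0.36 in mTEC and -0.54 ± 0.40 in cTEC, and the difference of the genotype effect was 0.40 ± 0.54. The opposite-strand transcript AC167363.2, which was not quantified, shares 262 bases with Cdkn1a, and its reads cannot be told apart. Of the 3 quantified transcripts of Cdkn1a, ENSMUST00000119901 and ENSMUST00000023829 carried most of its TPM, with group means of 40.7% to 57.5% and 39.5% to 48.9%.

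Cdkn1b, the gene of p27, was at 29.7, 26.1 and 52.2 CPM in WT cTEC, 14.2, 21.5 and 15.0 CPM in WT mTEC, 29.2, 28.9 and 33.0 CPM in Aβ0/0 cTEC and 18.8, 18.8 and 23.8 CPM in Aβ0/0 mTEC. The groups did not overlap in either genotype, and the log2 fold changes were -1.08 ± 0.36 in WT (adjusted p = 0.061) and -0.56 ± 0.39 in Aβ0/0 mice (adjusted p = 0.53). In WT it was called by DESeq2 (adjusted p = 0.029), without a filter on low counts (0.049) and without WT cTEC replicate 2 (0.032). Cdkn2c, the gene of p18, was at 27.7, 23.4 and 48.4 CPM in WT cTEC and 28.0, 36.0 and 36.8 CPM in WT mTEC, with a log2 fold change of 0.02 ± 0.34. In Aβ0/0 mice it was at 27.7, 32.1 and 43.2 CPM in cTEC and 13.2, 32.6 and 21.1 CPM in mTEC. The remaining inhibitor genes of both families were all called in WT, where 26.8% of all genes were. Cdkn1c, the gene of p57, was at 11.8, 20.3 and 16.4 CPM in WT cTEC and 317, 350 and 245 CPM in WT mTEC, with a log2 fold change of 4.25 ± 0.30 and an adjusted p of 0.00025. Cdkn2b, the gene of p15, was at 3.3, 4.5 and 3.1 CPM and 49.2, 58.3 and 60.5 CPM, with 3.97 ± 0.27 and an adjusted p of 0.00022. Cdkn2a, the gene of p16 and Arf, was higher in mTEC at 2.0, 2.5 and 2.1 CPM, against 0.0, 0.4 and 0.0 CPM. Cdkn2d, the gene of p19, was lower in mTEC, with a log2 fold change of -1.01 and an adjusted p of 0.047. Without MHCII, Cdkn1c and Cdkn2b were also called as higher in mTEC, with log2 fold changes of 4.91 and 2.96. None of the 7 inhibitor genes passed the threshold between genotypes, where Cdkn2a had too few counts to be tested in cTEC.

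**Figure D4:**
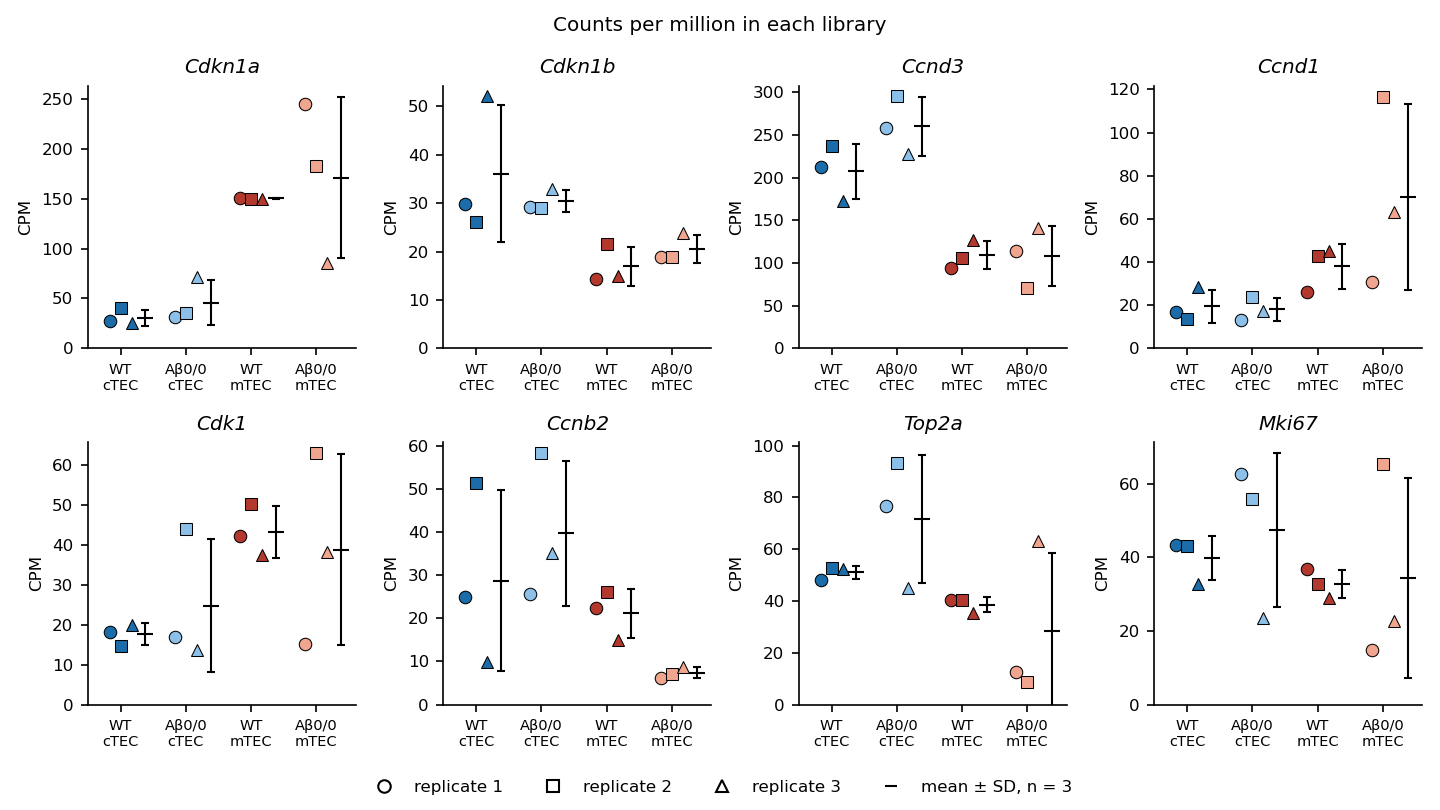
CPM (vertical axes, each from 0) in the 12 libraries for Cdkn1a, Cdkn1b, Ccnd3, Ccnd1, Cdk1, Ccnb2, Top2a and Mki67, with the mean ± SD of 3 libraries beside the points (the lower bar of Top2a in Aβ0/0 mTEC is clipped at 0). Cdkn1a stands at 150 to 151 CPM in all WT mTEC libraries, and Ccnb2 lies between 6.2 and 8.7 CPM in the Aβ0/0 mTEC libraries.

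The spread between libraries differed between the groups. The median coefficient of variation (CV) of the 40 members was 16.6% in WT mTEC and 54.9% in Aβ0/0 mTEC, against 16.9% and 40.8% over all genes in the same range of levels. In cTEC it was 37.4% in WT and 33.9% in Aβ0/0 mice, against 32.3% and 32.1%. The CV was higher in Aβ0/0 than in WT mTEC for 35 of 40 members, and higher in Aβ0/0 than in WT cTEC for 17 of 40. The same count was not made over all genes, whose median CV in mTEC also rose. The 35 of 40 is therefore not a trait of the members. Within mTEC, the G2 and mitosis genes went from a median CV of 16.5% in WT to 78.5% in Aβ0/0, where all genes in the same range of levels had 57.7%. The DNA replication genes went from 15.0% to 40.5%, where all genes had 40.1%. A CV over 3 libraries is itself imprecise, and no test was made of these values. Under each replicate number the study lists fewer sorted cTEC and fewer sorted mTEC for Aβ0/0 than for WT mice. The part of this lower cell input in the spread and in the counts near 0 was not tested, and it cannot be told apart from genotype here.

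**Figure D5:**
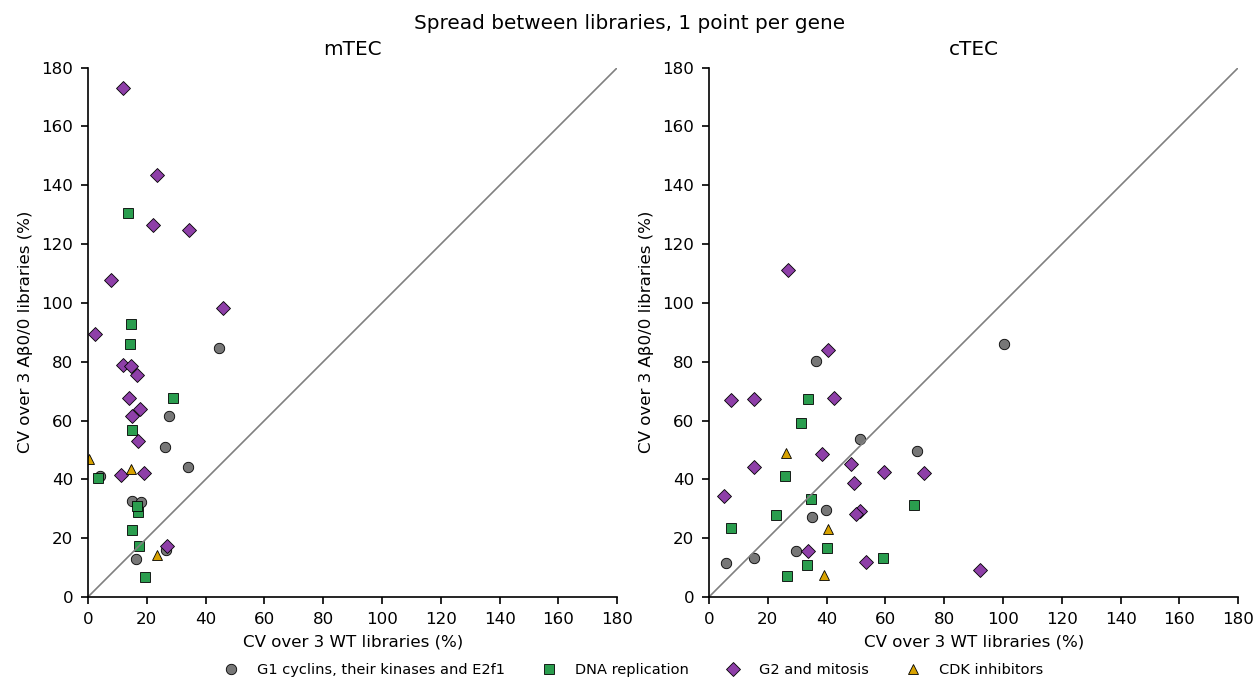
CV in percent over 3 WT libraries (horizontal axis) against the CV over 3 Aβ0/0 libraries (vertical axis) for the 40 members, 1 point per gene, in mTEC (left) and cTEC (right), with the line of equal CV. In mTEC 35 of 40 points lie above the line, and in cTEC 17 of 40 do, and the same count was not made over all genes.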

How the data were processed

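RNA of the 12 libraries was amplified with SMART-Seq v4, which keeps neither strand nor molecular identifiers. Per the labels, the reads were processed with bcl2fastq (2.20.0), Trim Galore and kallisto (0.43) against mm10, and the transcript annotation release is not given in the sources used here. The authors deposited estimated counts, TPM and effective lengths for 109282 transcripts per library, and a table of log2 values made with the rlog function of DESeq2.

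Transcripts were summed per gene with GENCODE M21 (GRCm38), and 1295 transcripts without an entry, with a share of 0.45% to 0.512% of each total, were left out. Estimated counts were rounded. Each comparison was fitted on its own 6 libraries, and the difference of genotype effects on all 12, with edgeR (4.0.16, R 4.3.3) using TMM factors, filterByExpr and the robust quasi-likelihood test, with Benjamini-Hochberg adjustment over all genes tested. CPM values used TMM factors over all 12 libraries, and genes were compared with each other only in TPM. The alternatives were RLE factors, no filter, a mean of at least 10 counts, DESeq2 (1.42.0), limma (3.58.1) on the rlog values, scaled TPM, a replicate block, a fit on all 12 libraries and leaving out each library. The scripts were tested on simulated counts. Near-identical transcripts were searched with BLAST (2.17.0, at least 95% identity over 200 bases). Opposite-strand neighbours shared bases with Ccna2 (Exosc9), Ccnd1 (LTO1), Ccnd3 (Bysl), Ccne2 (Ints8), Cdk4 (Tspan31) and Mcm7 (Ap4m1), and neighbours that were not quantified did so with Cdkn1a (AC167363.2), Ccnd2 (Gm43126) and Cdk6 (Gm17590). The counts of these 9 members are therefore less certain. With same-strand copies included, 15 members had a near-identical stretch in another gene. Mcm7 matched Gm5487 at 97.7% over 2157 bases and Ccnb1 matched Gm7483 at 96.6% over 383 bases, and neither was quantified. The mean count of Gm16505 was 11.0% of that of Cdk6, and the other quantified same-strand copies had 0.31% or less of their member.

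The 3 libraries of a group came from separate pools of mice, so p-values measure the spread between pools. The members and all gene lists were chosen with earlier results of these data known. Values in every library are given for members past the threshold in a comparison and for Mki67, Top2a, Ccnd1, Cdkn1a, Cdkn1b and Cdkn2c. Those of Mcm2, Mcm6, Cdc6, Aurka, Birc5 and Foxm1 were added after their values were seen, because their groups did not overlap. Genes of the other pathway lists are named where they passed the threshold. Cell type markers are named where their list is described, some of them after their values were seen. The cTEC and mTEC libraries of the same genotype and number were taken as one pool, since the study lists both subsets for each sorting, and their deviations from the group means correlated between 0.015 and 0.29. The tests between subsets and of the difference of genotype effects treat libraries of one pool as separate, except with the block.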

Additional observations from a re-analysis of the deposited data

How the results depend on the processing

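The number of members past the threshold moved with the test. Between genotypes in mTEC it was 0 (5.66% of all genes), and 1 with DESeq2 (9.56%), and in cTEC and for the difference of genotype effects it was 0 under every alternative run. For mTEC over cTEC in WT it was 3 (26.8% of all genes), and 6 with DESeq2 (33.7%), 5 with limma on rlog values (23.8%) and between 2 (17.7%) and 7 (38.1%) when 1 library was left out, with 7 without WT cTEC replicate 3. In Aβ0/0 mice it was 1 (5.6%), and 2 without a filter on low counts (3.35%), 6 with DESeq2 (13%), 0 with limma on rlog values (2.7%), 2 with scaled TPM (4.85%), 4 with the fit on all 12 libraries (9.35%) and between 0 and 2 when 1 library was left out (2.01% to 2.79%). The cause was not tested. Between genotypes in mTEC the share of all genes called was itself 0.0989% without a filter, 0.0578% with a mean of at least 10 counts, 0.103% with the fit on all 12 libraries, 0% with the replicate block, 0% without any 1 of the WT mTEC libraries and 12% without Aβ0/0 mTEC replicate 1. The Mki67 log2 fold change between genotypes in mTEC lay between -0.43 and 0.81 when 1 library was left out, and was 0.81 without Aβ0/0 mTEC replicate 2. Over single members, 26 values passed the threshold only under an alternative and 11 lost it. In 68 of 200 pairs of member and comparison the log2 fold change had another sign under at least 1 alternative, with 171 such values in all. In 170 of them the unadjusted p was at or above 0.05 in both fits, and the other was Mki67.

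With the pool as a replicate block, 3 members were called in WT (20.5% of all genes) and 0 in Aβ0/0 mice (4.02%), and the median of the replication genes in the difference of genotype effects moved from 0.24 to 0.68. The study lists the sorting yields of both genotypes under each replicate number but does not state that they were sorted together, so whether the number pairs WT and Aβ0/0 libraries is not known. Blocking on it left 0 members called in both subsets and moved the median of the G2 and mitosis genes in mTEC from 0.74 to 1.14, and the deviations of same-numbered libraries correlated between 0.07 and 0.32 in mTEC and between -0.11 and 0.30 in cTEC. The alternatives for the medians were chosen after seeing the data.

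With 3 libraries per group, an exact permutation test cannot go below a two-sided p of 0.1. Members at or under 3 counts in a library, such as Foxm1 and Bub1b in Aβ0/0 mTEC, have fold changes that rest on few reads.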

Other observations

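Of 18 genes for retinoblastoma family, E2F and MuvB proteins, 1 rose and 2 fell in WT mTEC over cTEC by edgeR, where 18% of all genes were called as higher and 8.81% as lower. Tfdp1, the dimer partner of E2F factors, was at 100.8, 87.1 and 39.7 CPM in WT cTEC and 168, 162 and 148 CPM in WT mTEC, with a log2 fold change of 1.11 ± 0.32 and an adjusted p of 0.038. Its relative Tfdp2 had the opposite direction, at 90.7, 112 and 97.1 CPM in cTEC and 39.0, 44.4 and 41.0 CPM in mTEC, with -1.25 ± 0.19 and an adjusted p of 0.0036. E2f8, a repressor of the E2F family, was at 22.8, 31.3 and 16.1 CPM in cTEC and 6.1, 2.5 and 2.8 CPM in mTEC, with -2.58 ± 0.49 and an adjusted p of 0.0072. None of the 18 was called in the other 4 comparisons.

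Of 16 p53 target genes besides Cdkn1a, 1 rose and 3 fell in WT mTEC over cTEC, against the same 18% and 8.81% of all genes. The apoptosis gene Bbc3 was at 13.5, 11.3 and 9.2 CPM in cTEC and 27.6, 23.4 and 26.0 CPM in mTEC, with a log2 fold change of 1.21 ± 0.29 and an adjusted p of 0.016. Sesn1, a stress-induced inhibitor of mTORC1 signalling, was at 156, 199 and 58.3 CPM in cTEC and 22.1, 19.3 and 17.7 CPM in mTEC, with -2.77 ± 0.42 and an adjusted p of 0.0033. Phlda3 and Trp53inp1 also fell, with -1.09 and -0.97. In Aβ0/0 mice, where 2.15% of all genes were called as lower, Sesn1 alone was called, with a log2 fold change of -2.03 ± 0.28 and an adjusted p of 0.0086. The called targets thus differed among themselves in direction. Between genotypes in mTEC, where 5.66% of all genes were called, Eda2r was the 1 called target, at 3.9, 6.2 and 1.9 CPM in WT and 0 CPM in the Aβ0/0 libraries, with an adjusted p of 0.036 by edgeR. The call was not kept with the replicate block or without any 1 of the WT mTEC libraries, where 0 genes were called.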
